A study of Mus musculus with 2 samples.

Results

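Tumour neutrophils were examined in 2 single-cell libraries of CD45+ cells, which are cells that carry the general leukocyte surface protein, sorted from subcutaneous tumours of MC38, a mouse colon carcinoma line, implanted into C57BL/6 mice. They made up 171 of the 19261 cell barcodes. Members were chosen by RNA counts measured in these same libraries. A barcode was taken as a neutrophil when it held at least 500 unique molecular identifiers (UMIs, each standing for 1 captured RNA molecule), at least 200 genes and at most 10% mitochondrial UMIs. It also had to hold at least 10 UMIs of S100a8 and S100a9 together, at least 1 UMI of Csf3r or Cxcr2, at most 1 UMI of the monocyte gene Ly6c2 and none of the T cell gene Cd3e. The 82 barcodes with fewer than 10 UMIs of the macrophage complement genes C1qa, C1qb and C1qc (little C1q RNA) were described apart from the 89 with at least 10 (much C1q RNA).

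Each genotype had 1 library, from tumours of UEIS LSL mice or of UEIS KI mice. The labels do not expand these names, and give neither the promoter nor the cell type in which an allele acts, nor the age or sex of the mice or whether tumours were pooled. The series title describes UEIS as a micropeptide that restrains cGAS-STING signalling and type I interferon, and the comparison addresses how immune cells differ between tumours of these mice. With 1 library per group there is no replicate check, so no test was made between genotypes and each difference is one between these libraries. All intervals are 95% intervals that cover counting error only.

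Neutrophils are short-lived granulocytes that leave the bone marrow with their granule proteins already made, and their granules are named in the order in which they form: primary, secondary and tertiary. They hold little RNA, and S100A8 and S100A9, the calprotectin subunits, are among their most abundant proteins. In tumours they respond to G-CSF through its receptor CSF3R and to CXC chemokines through CXCR2, and they secrete chemokines and interleukin 1 themselves.

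The promoters of 3 granule and secreted-protein genes whose RNA differed between the libraries, and of 1 interferon-induced gene, show what kind of sequence lies before them. Each line gives the 250 bases before the gene's start in RefSeq (GRCm38.p6, the build of mm10), read 5′ to 3′ on the gene's strand. Capitals mark matches, on either strand, to TTGCNNAA (a core of C/EBP sites, searched after the data had been seen) in Retnlg at chr16:48872358-48872607 (+), Lcn2 at chr2:32387740-32387989 (-) and Ngp at chr9:110419558-110419807 (+). In Isg15 at chr4:156200819-156201068 (-) they mark 3 overlapping matches to the core of the interferon-stimulated response element, a pair of GAAA runs with any 2 bases between them.
Retnlg: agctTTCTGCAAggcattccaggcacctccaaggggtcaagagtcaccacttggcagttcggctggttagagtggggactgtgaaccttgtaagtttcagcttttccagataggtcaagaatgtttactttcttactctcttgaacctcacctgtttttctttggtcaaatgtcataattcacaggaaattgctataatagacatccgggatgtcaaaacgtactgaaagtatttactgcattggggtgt
Lcn2: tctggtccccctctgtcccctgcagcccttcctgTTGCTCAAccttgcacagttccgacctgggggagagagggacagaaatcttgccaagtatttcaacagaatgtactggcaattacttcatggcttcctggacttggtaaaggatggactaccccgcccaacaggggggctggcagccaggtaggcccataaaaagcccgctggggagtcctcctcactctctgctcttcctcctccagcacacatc
Ngp: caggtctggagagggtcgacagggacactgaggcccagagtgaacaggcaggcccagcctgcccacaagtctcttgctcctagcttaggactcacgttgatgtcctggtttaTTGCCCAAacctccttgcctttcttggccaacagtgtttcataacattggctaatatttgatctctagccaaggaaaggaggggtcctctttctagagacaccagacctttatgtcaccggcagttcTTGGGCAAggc
Isg15: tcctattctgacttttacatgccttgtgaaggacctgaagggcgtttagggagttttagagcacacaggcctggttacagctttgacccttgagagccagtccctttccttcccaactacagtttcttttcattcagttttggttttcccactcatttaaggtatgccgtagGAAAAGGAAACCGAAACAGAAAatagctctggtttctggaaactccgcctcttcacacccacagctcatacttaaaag
In windows of 300 bases, with 50 bases after the start included, TTGCNNAA was present in 10.8% of 32851 promoters and the interferon-stimulated core in 3.44%. TTGCNNAA was found in 4 of the 11 neutrophil marker genes with a promoter in the table (Retnlg, Mmp8, Ly6g and Lcn2). A gene can have more than 1 window, so a count of genes and a share of promoters are unlike measures. These matches describe the letters of the windows and are no evidence of binding.

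The neutrophil share was higher in UEIS KI. Of the barcodes that passed the limits on UMIs, genes and mitochondrial RNA, 32 of 9370 (0.342%, exact Clopper-Pearson interval 0.234 to 0.482) were neutrophils in UEIS LSL, against 139 of 9442 (1.47%, 1.24 to 1.74) in UEIS KI. The shares differed 4.31-fold (2.92 to 6.54). Barcodes with little C1q RNA numbered 15 (0.160%, 0.0896 to 0.264) and 67 (0.710%, 0.550 to 0.900), which is 2.15 on the log2 scale (1.33 to 3.06). Those with much C1q RNA numbered 17 (0.181%, 0.106 to 0.290) and 72 (0.763%, 0.597 to 0.959), or 2.07 on that scale (1.29 to 2.93). The difference was therefore of like size in both kinds of barcode, and the 41 alternative values of these 3 shares, under other limits, had log2 ratios of 1.86 to 2.80. Cells are not replicates, and how much the share varies between mice was not measured.

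Few barcodes lay near the S100 limit. For UEIS LSL and then UEIS KI, 7 and 10 barcodes met all limits except for holding 5 to 9 UMIs of S100a8 and S100a9, and 2 and 6 members held 10 to 14. The receptor limit mattered more: 18 and 64 barcodes met all other limits but held no UMI of Csf3r or Cxcr2, and 13 and 49 members held exactly 1. A limit of 2 receptor UMIs left 10 and 42 barcodes with little C1q RNA. The Ly6c2 limit left out 1 and 8 barcodes, and 0 and 8 members held 1 Ly6c2 UMI. S100a8 RNA was also seen in cells gated as macrophages, of which 5.74% in UEIS LSL and 16.9% in UEIS KI held a UMI at median depths of 9588.5 and 10314.5 UMIs. Its summed level there was 7.6 and 22.3 CPM (counts per 1000000 UMIs), against 12518 and 21677 CPM in neutrophils with little C1q RNA.

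The label was checked on 12 neutrophil markers that the rule had not used. In neutrophils with little C1q RNA they summed to 7834 CPM in UEIS LSL and 11441 CPM in UEIS KI. The sums were 303 and 411 CPM in cells gated as macrophages, and 707 and 1754 CPM in cells gated as Ly6c2 monocytes. In barcodes with much C1q RNA the sums were 1299 and 2369 CPM. These lie nearer the monocyte gate than the neutrophils with little C1q RNA, so the name is less sure there. Of the neutrophils with little C1q RNA, the 4 UEIS LSL barcodes with at least 3000 UMIs summed to 2330 CPM, against 19010 CPM in the other 11. Those 4 held 8975 CPM of macrophage markers, so the name is less sure for them. Retnlg, G0s2, Il1r2, Slpi and Hcar2 were among 48 genes at least 4-fold above the macrophage gate in both libraries. Defining markers of other granulocytes were nearly missing: all 7 mast cell and basophil genes and 5 of 6 eosinophil genes stood at 0 UMIs, and Siglecf held 1 UMI in each library. Markers of T, NK, B and dendritic cells summed to 0 UMIs in UEIS LSL and to 11, 19, 1 and 21 UMIs in UEIS KI, and the NK marker UMIs lay in 1 barcode. Monocyte markers outside the rule (Ccr2, Fn1, Chil3 and others) were present. In UEIS LSL they summed to 3883 CPM in barcodes with at least 3000 UMIs and 701 CPM in shallower ones. The sums were 3399 and 1347 CPM in UEIS KI. Ly6g, the usual surface marker of mouse neutrophils, had only 0 and 4 UMIs, and Cd177 0 and 7, so the barcodes are named from the other markers.

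Macrophage RNA was present in both kinds of barcode and at unequal levels. With little C1q RNA, 12 macrophage markers outside the rule (Apoe, Csf1r, Cd68 and others) summed to 7198 CPM in UEIS LSL and 4520 CPM in UEIS KI, and none of them was at 0 over both libraries. In the macrophage gate the same sum was 11514 and 12354 CPM, and with much C1q RNA it was 11887 and 12140 CPM. Barcodes with much C1q RNA were also deep, with medians of 12783 and 11597.5 UMIs against 1180 and 1398 with little. Of them, 4 of 17 and 23 of 72 were among the highest scores of the doublet caller Scrublet, against 0 of 15 and 2 of 67 with little C1q RNA. S100a8 and S100a9 took 0.427% and 0.958% of their UMIs, against 2.64% and 4.76%. Barcodes gated as T cells held at least 10 C1q UMIs in 56.9% and 33.3% of cases and B cells in 40.6% and 31.7%, next to 53.1% and 51.8% of neutrophils. Whether barcodes with much C1q RNA hold 1 cell or a neutrophil with a macrophage was not tested.

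**Figure D1:**
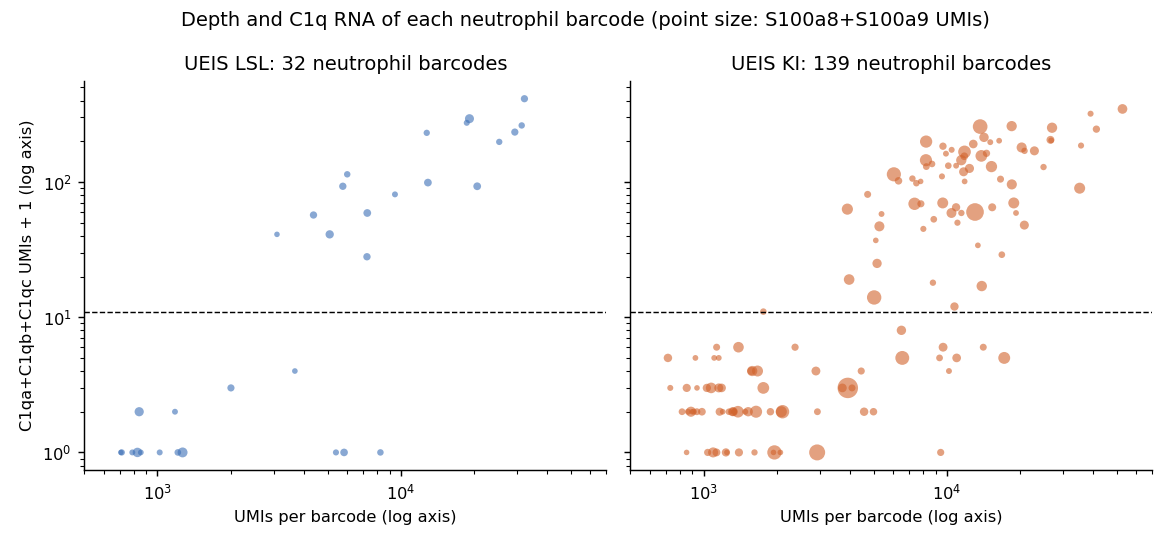
Depth against C1q RNA for each neutrophil barcode in UEIS LSL (left) and UEIS KI (right). The horizontal axis is the number of UMIs in a barcode and the vertical axis the C1qa, C1qb and C1qc UMIs plus 1, both on log axes. Point size follows S100a8 and S100a9 UMIs and the dashed line marks the limit of 10 C1q UMIs. In UEIS LSL the 15 barcodes below the line hold at most 4 C1q UMIs and the 17 above it at least 27. In UEIS KI 13 barcodes hold 5 to 26.

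In UEIS LSL no barcode held 5 to 26 C1q UMIs, so the limit of 10 fell in a gap. In UEIS KI 6 barcodes held 5 to 9 and 7 held 10 to 26, so the groups adjoin there. The plot of depth against C1q RNA also shows 4 barcodes of UEIS LSL with little C1q RNA that stand apart by depth, at 3670, 5414, 5846 and 8246 UMIs. They held 67.0% of that group's UMIs, and the 11 shallower barcodes held the other 33.0%. In UEIS KI the 15 barcodes with at least 3000 UMIs held 62.2%. S100a8 and S100a9 took 0.725% of UMIs in the 4 deep barcodes of UEIS LSL and 6.52% in the 11 shallow ones, with 2.32% and 8.76% in UEIS KI. Macrophage markers summed to 8975 and 3592 CPM in the deep and shallow barcodes of UEIS LSL, and to 5346 and 3162 CPM in UEIS KI. Neutrophil markers outside the rule summed to 2330 and 19010 CPM in the deep and shallow barcodes of UEIS LSL, and to 6398 and 19742 CPM in UEIS KI. Values for barcodes under 3000 UMIs are therefore given beside several results with little C1q RNA, a choice made after the data had been seen.

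Counts were summed over the barcodes of each kind in each library, and a gene was measured when it had at least 50 UMIs over both libraries. It was called higher or lower when the ratio was at least 1.5-fold and its exact conditional binomial interval lay on that side of 1. With little C1q RNA 689 genes were measured at 34591 and 192466 UMIs in all, of which 54 (7.84%) were called higher in UEIS KI and 71 (10.3%) lower, together 18.1%. With much C1q RNA 3657 genes were measured at 250947 and 1019540 UMIs, of which 229 (6.26%) were called higher and 183 (5.0%) lower, together 11.3%. In barcodes with little C1q RNA under 3000 UMIs 247 genes were measured, of which 23 (9.31%) were called higher and 24 (9.72%) lower. The median log2 ratio over all measured genes was near 0 for little and much C1q RNA at all depths, at 0.02 and 0.03. In these 2 sets 16 genes were called higher and 8 lower, and 13 were called in opposite directions.

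Of the 9 measured markers outside the rule 4 were called higher, none lower and 5 neither, with a median log2 ratio of 0.86. Under 3000 UMIs, where the 12 markers summed to 19010 CPM in UEIS LSL and 19742 CPM in UEIS KI, 4 of 9 were called higher and 2 lower. The lower ones were G0s2, an inhibitor of triglyceride breakdown, at 9374 and 4963 CPM (log2 -0.92, -1.23 to -0.59) and Mxd1, a MAX-binding repressor, at 2716 and 1581 CPM (log2 -0.78, -1.36 to -0.16). Retnlg, which encodes a secreted resistin-like protein (ENSMUSG00000022651, chromosome 16, 48872621 to 48874496, protein-coding), was at 838 CPM in UEIS LSL and 3782 CPM in UEIS KI, 4.51-fold higher (log2 2.17, 1.64 to 2.76). It had a UMI in 5 of 15 and 41 of 67 barcodes. In UEIS LSL 1 barcode gave 55.2% of its UMIs. Leaving out the highest barcode of each library gave a log2 ratio of 2.84. That step removes 1 of 15 barcodes in UEIS LSL and 1 of 67 in UEIS KI, so it raises ratios by construction. Under 3000 UMIs it was at 1577 and 5307 CPM, a log2 ratio of 1.75 (1.07 to 2.52). The genotypes overlapped barcode by barcode, from 0 to 12618 CPM in UEIS LSL (median 0) and from 0 to 53613 CPM in UEIS KI (median 1225).

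At matched depth the share of barcodes with Retnlg RNA was closer. After each barcode was thinned to 1000 UMIs, 4 of 9 (44.4%) in UEIS LSL and 29 of 54 (53.7%) in UEIS KI held a Retnlg UMI, with 6 and 13 shallower barcodes left out. Before thinning the shares were 33.3% and 61.2%. In the macrophage gate 0.05% and 0.10% of thinned cells held one. With 9 thinned barcodes in UEIS LSL, a difference in this share was not detectable.

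**Figure D2:**
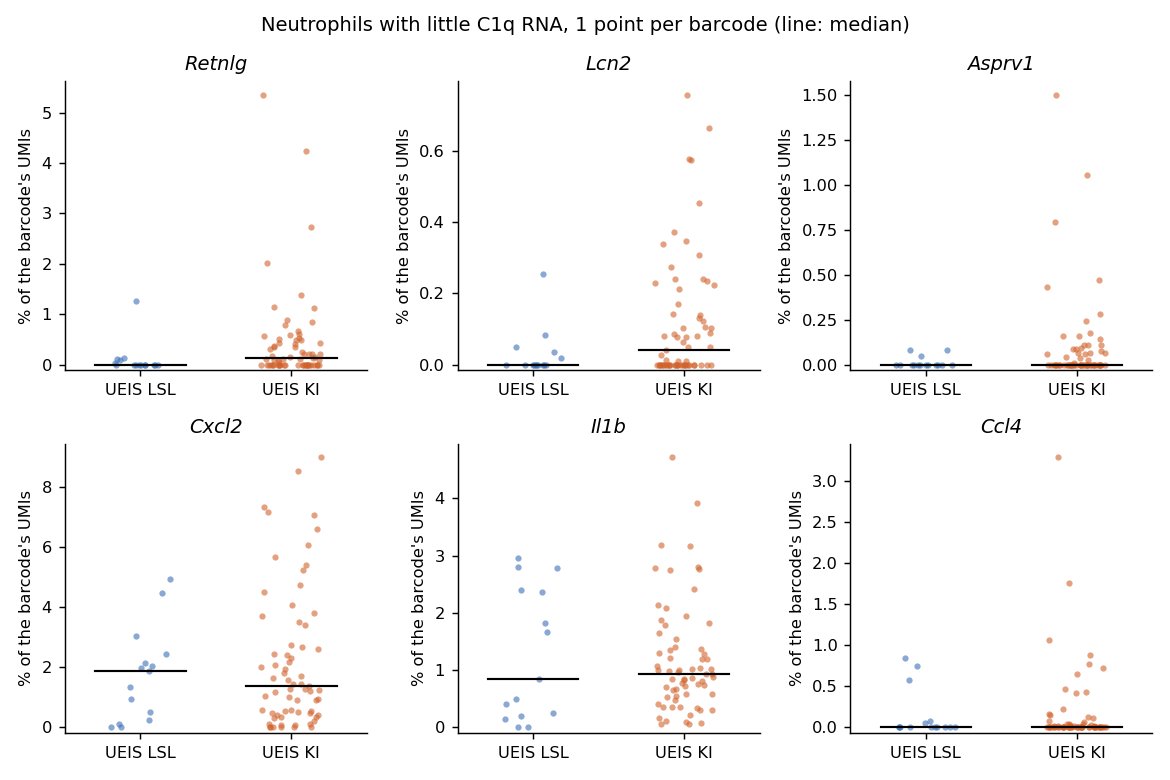
Share of each barcode's UMIs for 6 genes in neutrophils with little C1q RNA, with 15 points for UEIS LSL and 67 for UEIS KI. The vertical axis is the percent of the barcode's UMIs and the line is the median. Points overlap between the libraries for all 6 genes. For each of the 6 genes the highest point lies in UEIS KI, where 67 points against 15 favour a higher maximum.

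Of 5 measured secondary granule genes 3 were called higher (Lcn2, Chil3 and Ngp), 1 lower (Lyz2) and 1 neither (Hp). Lcn2, the siderophore-binding lipocalin 2, was at 202 CPM in UEIS LSL and 821 CPM in UEIS KI (log2 2.02, 0.94 to 3.36), with a UMI in 5 and 38 barcodes. At 1000 UMIs 0 of 9 and 21 of 54 barcodes (38.9%) held an Lcn2 UMI. Ngp, neutrophilic granule protein, had 0 UMIs in UEIS LSL and 62 in UEIS KI (322 CPM), at least 3.71-fold higher against a floor of 3 counts per library, but 61.3% of its UMIs lay in 1 of the 7 barcodes that had any. The summed list ran the other way at all depths, from 7314 to 4338 CPM, since Lyz2, lysozyme, makes up most of it at 6360 and 2000 CPM (log2 -1.67). In UEIS LSL 206 Lyz2 UMIs lay in the 4 barcodes with at least 3000 UMIs and 14 in the other 11. Under 3000 UMIs the summed list was at 2628 and 4743 CPM (log2 0.85, 0.31 to 1.44), with Lyz2 at -0.09.

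The primary granule list (Mpo, Elane, Prtn3 and 3 others) held no UMI in UEIS LSL and only 1 in UEIS KI. The secondary granule genes Camp, a cathelicidin, and Ltf, lactoferrin, held 0 and 2 UMIs together. RNA of these genes, which is made in marrow precursors, was thus at or near 0 in both libraries. Among tertiary granule genes Mmp9, the gelatinase, was called higher at 260 and 546 CPM (log2 1.07, 0.09 to 2.24), and Adam8 and Itgam were called in neither direction at -0.15 and 0.06.

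Of 2 measured stefin A protease inhibitor genes 1 was called higher. That gene, Cstdc4, was at 318 CPM in UEIS LSL and 966 CPM in UEIS KI (log2 1.60, 0.73 to 2.63), and its paralog Stfa2l1 at 260 and 379 CPM (log2 0.54) was not called. Reads of this family can be shared among near-identical copies, so the split between members is uncertain. Wfdc21 was at 231 and 748 CPM (log2 1.69, 0.68 to 2.93) and Slpi, a secreted inhibitor of neutrophil elastase, at 1012 and 2037 CPM (log2 1.01, 0.51 to 1.55). Under 3000 UMIs Slpi was at 2541 and 3341 CPM (log2 0.40, -0.16 to 1.0) and was not called. Asprv1, a retroviral-like aspartic protease, was at 86.7 and 592 CPM (log2 2.77, 1.19 to 5.07), from only 3 UMIs in UEIS LSL. Anxa1, annexin A1, was at 57.8 and 556 CPM (log2 3.27, 1.38 to 6.33), from 2 UMIs in UEIS LSL.

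Of 7 other S100 and annexin genes 3 were called higher and none lower, and S100a6 was at 3903 and 6121 CPM (log2 0.65, 0.39 to 0.92). S100a8 at 12518 and 21677 CPM and S100a9 at 13848 and 25875 CPM had chosen the barcodes, and are given as a description. In the macrophage gate the log2 ratios were 1.56 for S100a8, 2.39 for S100a9, 1.55 for Retnlg and 2.66 for Wfdc21, but -0.22 for Lcn2 and -0.94 for Cstdc4. The part of RNA from outside the cell in the neutrophil ratios was not tested.

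**Figure D3:**
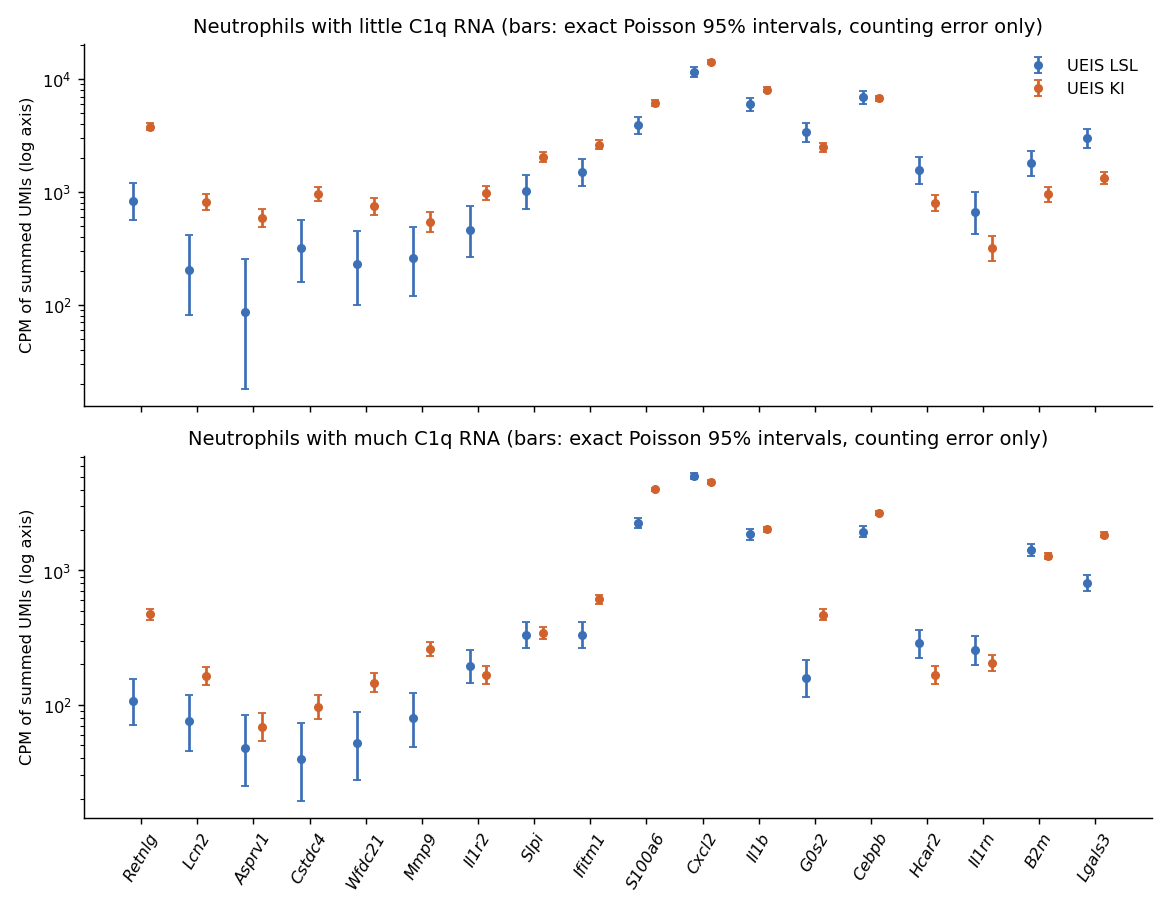
Summed level of 18 genes in neutrophils with little C1q RNA (top) and much C1q RNA (bottom), in CPM on a log axis, for UEIS LSL and UEIS KI. Points are the library's summed CPM and bars are exact Poisson intervals for counting error only. Retnlg, Lcn2, Wfdc21, Cstdc4, Mmp9, Ifitm1 and S100a6 lie higher in UEIS KI in both panels and Hcar2 lower, while Lgals3 lies lower in the top panel and higher in the bottom one.

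Of 8 measured chemoattractant and growth factor receptors 1 was called higher, 1 lower and 6 neither, with a median log2 ratio of -0.03. Il1r2, the decoy receptor that binds interleukin 1 without signalling, was the higher one at 463 and 982 CPM (log2 1.09, 0.35 to 1.92). Ccrl2, an atypical receptor that holds chemerin, was the lower one at 1503 and 998 CPM (log2 -0.59). C5ar1, the receptor of complement C5a, was at 723 and 982 CPM (log2 0.44), and was called higher under 3000 UMIs at 613 and 1389 CPM (log2 1.18, 0.08 to 2.53). Cxcr4, the marrow-retention receptor, was at 434 and 410 CPM (log2 -0.08). The rule genes Csf3r at 636 and 561 CPM and Cxcr2 at 405 and 260 CPM were not called. No member of the adhesion, NADPH oxidase, Fc receptor or innate sensing lists was called, at 3, 3, 3 and 8 measured genes. Of 4 innate sensing receptors measured under 3000 UMIs 1 was called higher: Cd14, the co-receptor for bacterial lipopolysaccharide, at 701 and 1897 CPM (log2 1.44, 0.42 to 2.68), against a log2 ratio of 0.03 at all depths.

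Cytokine and chemokine RNA was abundant in both libraries. Cxcl2, a ligand of CXCR2, was at 11506 CPM in UEIS LSL and 14070 CPM in UEIS KI (log2 0.29, 0.14 to 0.45), below the call. It was detected in 13 of 15 and 61 of 67 barcodes. Il1b, interleukin 1 beta, was at 5955 and 8069 CPM (log2 0.44), in 13 and 67 barcodes, and at -0.34 under 3000 UMIs. Among 7 inflammatory mediators none was called higher and 2 lower: Il1rn, the interleukin 1 receptor antagonist, at 665 and 317 CPM (log2 -1.07, -1.78 to -0.31) and Ptgs2, the inducible cyclooxygenase, at 1012 and 649 CPM (log2 -0.64). Both were called lower also under 3000 UMIs, where Il1rn stood at -1.71. Il1rn had 43.5% of its UEIS LSL UMIs in 1 barcode and its log2 ratio was -0.37 without each library's highest barcode.

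The direction of the chemokine list depended on which barcodes were counted. Of 9 measured chemokine genes 6 were called lower and 1 higher, with a median log2 ratio of -0.77, while their summed level was 22983 and 21386 CPM. Ccl3 was at 2053 and 1216 CPM (log2 -0.76) and Ccl4 at 2110 and 966 CPM (log2 -1.13), chemokines that attract monocytes and lymphocytes. Under 3000 UMIs Ccl3 stood at 0.01 and Ccl4 at 0.89, with the list's median at 0.76. There 3 of 5 measured chemokine genes were called higher and none lower, and the summed level had a log2 ratio of 0.43 (0.26 to 0.61). Ccl6 was not called at all depths (log2 0.42), but was called higher under 3000 UMIs at 2365 and 4001 CPM. It stayed above 0 in all 15 alternatives (0.31 to 0.76). Cxcl3 was at 2024 and 509 CPM (log2 -1.99) with 85.7% of its UEIS LSL UMIs in 1 barcode, and stood at 1.52 under 3000 UMIs. Ccl5 was the higher one, with 0 and 50 UMIs, all 50 in 1 barcode that also held 11 T cell and 19 NK cell marker UMIs. No single direction can thus be given for the chemokine list in these neutrophils.

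**Figure D4:**
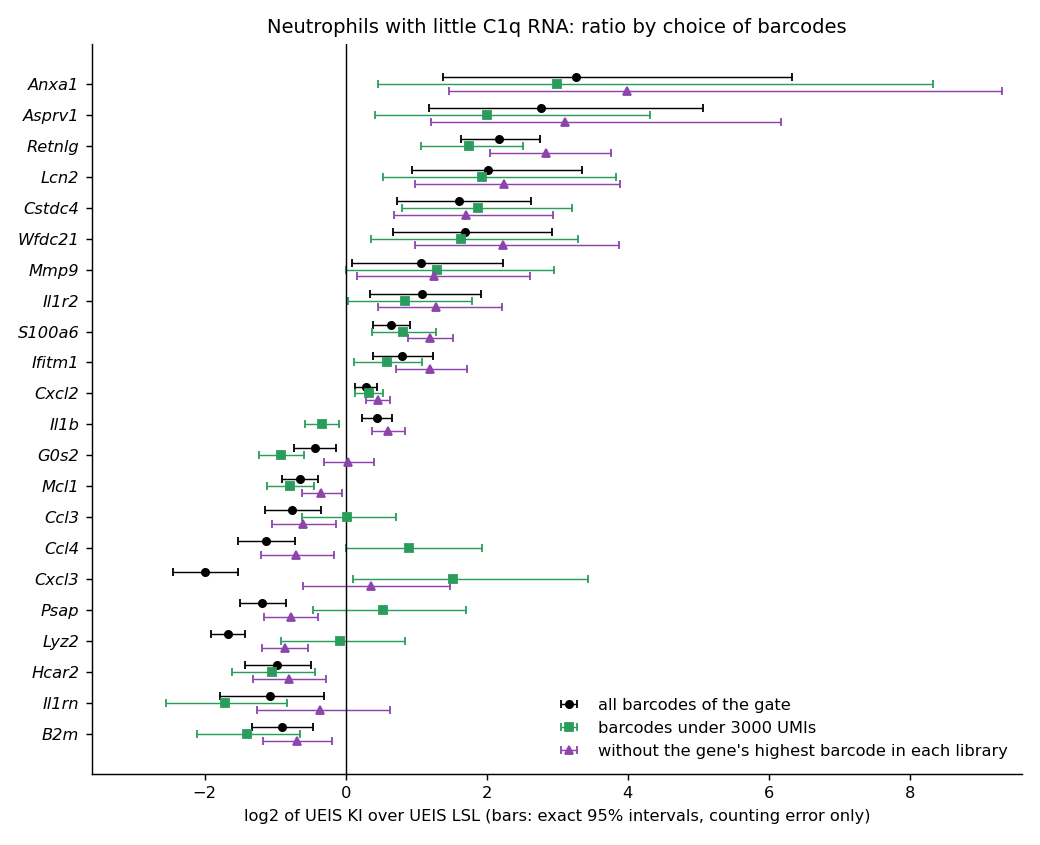
Log2 ratio of UEIS KI over UEIS LSL for 22 genes in neutrophils with little C1q RNA, from all barcodes (circles), from barcodes under 3000 UMIs (squares) and without each gene's highest barcode in each library (triangles). Bars are exact intervals for counting error only. The markers of Retnlg, Lcn2, Cstdc4, Wfdc21, Asprv1 and Anxa1 stay right of 0 and those of Hcar2 and B2m left of it, while Ccl4, Cxcl3 and Psap lie on both sides.

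Calls were then counted again in other sets of barcodes. Of the 54 higher genes 27 were measured under 3000 UMIs, 26 of them in the same direction and 14 called again: Retnlg, Lcn2, Asprv1, Cstdc4, Wfdc21, Anxa1, Mmp9, Il1r2, Ifitm1, S100a6, Spp1 and the mitochondrial mt-Cytb, mt-Nd1 and mt-Nd2. Those 14 were called again also without each gene's highest barcode, but so were all 46 higher genes measured there. Of the 71 lower genes 33 were measured under 3000 UMIs, 27 in the same direction and 13 called again. Without the highest barcode 18 of 61 measured lower genes were called again, and 6 in both: B2m, Eif1, Hcar2, Lgals3, Pgam1 and Sdcbp. Leaving out the highest barcode removes 1 of 15 barcodes in UEIS LSL and 1 of 67 in UEIS KI, and so lowers the UEIS LSL level more by construction.

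Hcar2, a receptor of beta-hydroxybutyrate and niacin (ENSMUSG00000045502, chromosome 5, 123863570 to 123865499, protein-coding), was lower in UEIS KI in all 15 alternatives tried. It was at 1561 CPM in UEIS LSL and 795 CPM in UEIS KI (log2 -0.97, -1.43 to -0.50), with a UMI in 13 of 15 and 40 of 67 barcodes, and those alternatives ranged from -1.68 to -0.50. B2m, the light chain of MHC class I, was at 1792 and 956 CPM (log2 -0.91, -1.33 to -0.47). All 3 measured MHC class I genes were called lower, the others being H2-K1 at 1156 and 738 CPM and H2-D1 at 2139 and 1330 CPM. Under 3000 UMIs only B2m of the 3 was called again, with H2-D1 at 1927 and 1553 CPM (log2 -0.31) and H2-K1 at 876 and 674 CPM (log2 -0.38). H2-D1 stood at 0.82 after thinning to 1000 UMIs. No MHC class II gene of 3 measured was called, and Cd74, the invariant chain, at 2631 and 1896 CPM had 82.4% of its UEIS LSL UMIs in 1 barcode.

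Of 16 measured glycolysis and hypoxia genes 5 were called lower, none higher and 11 neither, with a median log2 ratio of -0.48. Pgk1, a glycolytic kinase, was at 1937 and 660 CPM (log2 -1.55) and Ero1a at 752 and 229 CPM (log2 -1.72). Under 3000 UMIs 1 of 7 was called lower, and Pgk1, at 788 and 412 CPM from 9 and 30 UMIs, and Ero1a, from 7 and 16, were below the limit of 50. Hmox1, haem oxygenase 1, was at 2371 and 312 CPM (log2 -2.93) with 79.3% of its UEIS LSL UMIs in 1 barcode. Mt1, metallothionein 1, was at 3874 and 753 CPM (log2 -2.36) with 67.9% in 1. Both were below the limit of 50 UMIs in shallow barcodes, where Hmox1 was at 613 and 454 CPM (log2 -0.43, -1.64 to 0.99) and Mt1 at 1840 and 275 CPM (log2 -2.74, -3.70 to -1.79). Of the 21 Mt1 UMIs in shallow UEIS LSL barcodes 20 lay in 1 barcode, so that value too rests on it. ACGTG or GCGTG, the core of the hypoxia response element, was found before 15 of the 16 glycolysis and hypoxia genes and in 43.8% of all promoters. A gene can have more than 1 promoter window, as Hilpda does, so these are unlike measures. Macrophage genes were lower too: Apoe was at 2891 and 1268 CPM, Psap at 3209 and 1413 CPM and Lyz2 as given above, and under 3000 UMIs these stood at -0.32, 0.53 and -0.09. Their part in these results was not tested.

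Of 7 tumour-associated neutrophil genes 5 were called lower and none higher (median -0.76), 2 of them Ccl3 and Ccl4, while under 3000 UMIs the median was 0.08, with 1 of 5 called higher and none lower. Of 5 suppressive neutrophil genes 2 were called lower, Arg1, arginase 1, at 1070 and 686 CPM (log2 -0.64, and 0.43 without each library's highest barcode) and Ptgs2. Wfdc17, a WAP-domain protein gene in the same list, was at 3498 and 4728 CPM (log2 0.43). Of 6 survival genes 3 were called lower: Mcl1, on which neutrophil survival depends, at 4770 and 3050 CPM (log2 -0.65), Btg1 at -0.64 and the pro-death Bax at -1.07. Among 14 transcription factors 1 was called higher, and Cebpb, a regulator of stress-driven granulopoiesis, was at 6909 and 6723 CPM (log2 -0.04). Of 3 cell cycle genes Tuba1b and Tubb5, tubulins, were called higher, and Mki67 and Top2a were not measured. Of 13 genes induced by tissue dissociation none was called higher and 2 lower (median -0.22), against 1 and 2 of 10 under 3000 UMIs, and the heat shock gene Hspa1a was at 1156 and 504 CPM.

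**Figure D5:**
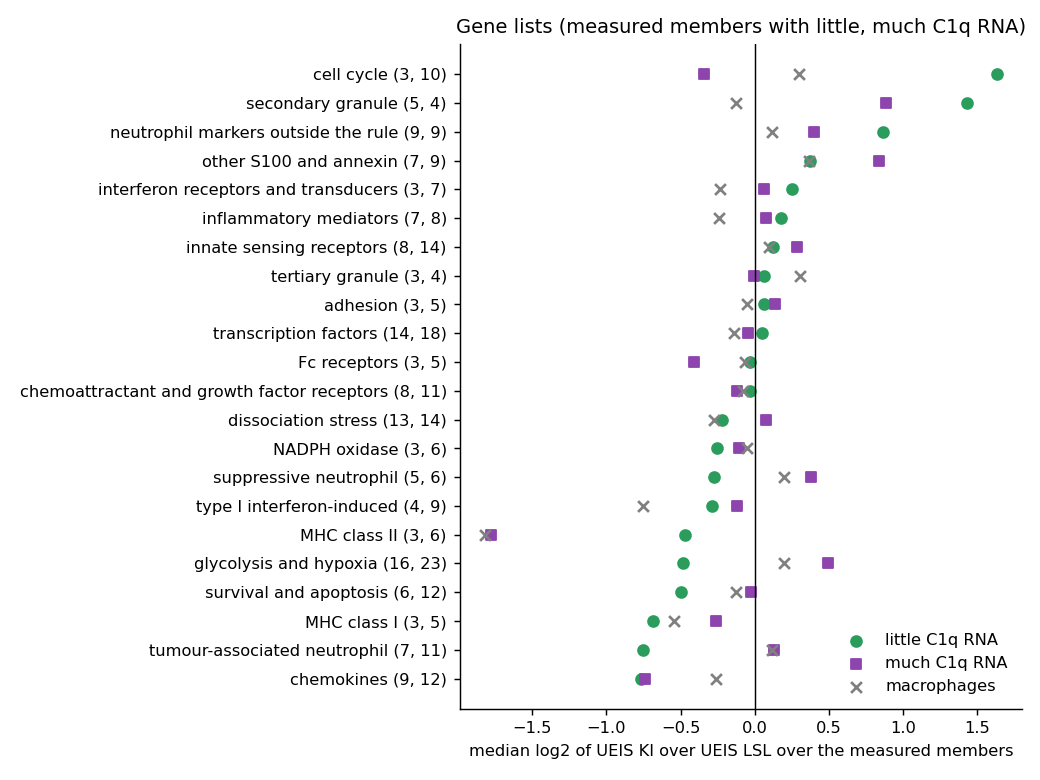
Median log2 ratio of UEIS KI over UEIS LSL over the measured members of each gene list, in neutrophils with little C1q RNA (circles), with much C1q RNA (squares) and in the macrophage gate (crosses), with the number of measured members for the neutrophil kinds in brackets. Secondary granule genes and neutrophil markers lie right of 0 in both neutrophil kinds and chemokines left of 0, at -0.77 and -0.74. Glycolysis and hypoxia genes lie left of 0 with little C1q RNA (-0.48) and right of it with much (0.49).

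Interferon-induced genes could hardly be measured. Of 46 type I interferon-induced genes 4 had 50 UMIs with little C1q RNA: Ifitm1 was called higher, Isg15 and Ifitm3 lower, and Slfn1 neither. The sum over the whole list was 6418 CPM in UEIS LSL and 5201 CPM in UEIS KI (log2 -0.30, -0.51 to -0.09). Under 3000 UMIs it was 9899 and 8262 CPM (log2 -0.26, -0.55 to 0.04), with an interval that includes 0. Isg15, a ubiquitin-like modifier, was at 607 and 265 CPM (log2 -1.20, -1.96 to -0.39), with 57.1% of its UEIS LSL UMIs in 1 barcode, and its promoter holds the 3 overlapping matches shown above. Ifitm3 was at 1561 and 1039 CPM (log2 -0.59) with 2 matches in its promoter window. Ifitm1, the family member that is high in neutrophils, was at 1503 and 2619 CPM (log2 0.80, 0.39 to 1.24), and at -0.03 with at least 2 receptor UMIs. Its window held no match. Under 3000 UMIs Ifitm1 was called again at 0.59 (0.12 to 1.09), while Ifitm3 at 1051 and 1017 CPM was not called and Isg15, at 613 and 412 CPM from 7 and 30 UMIs, was below the limit of 50. Rsad2, viperin, was named after its values were seen: it had 19 UMIs in 5 barcodes of UEIS LSL (549 CPM) and 6 UMIs in 3 barcodes of UEIS KI (31.2 CPM), under the limit of 50.

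With much C1q RNA 1 of 9 measured genes was called higher, Ifitm1 at 331 and 612 CPM (log2 0.89), 1 lower, Epsti1 at 120 and 59.8 CPM, and the summed level had a log2 ratio of 0.02. In the macrophage gate 35 of 46 genes were called lower and none higher, with a median of -0.75, where 7.02% of all 13941 measured genes were called lower and 4.28% higher. At this depth most of the list could not be called in neutrophils, and the difference between neutrophils and macrophages was not tested. The cGAS-STING list had 1 measured gene, Samhd1, a nucleotide phosphohydrolase, at 145 and 301 CPM (log2 1.06, -0.24 to 2.74), which was not called. Sting1 had 0 and 7 UMIs and Cgas 0 and 2. The rows of the matrices include none named UEIS, so the targeted locus gives no check of the genotype labels.

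With much C1q RNA 4 of 9 measured neutrophil markers were called higher: Retnlg at 108 and 472 CPM (log2 2.13, 1.57 to 2.75), G0s2 at 159 and 470 CPM (log2 1.56), Mmp9 at 79.7 and 261 CPM (log2 1.71, with 53.4% of the UEIS KI UMIs in 1 barcode) and Lcn2 at 75.7 and 165 CPM (log2 1.12). G0s2 had been at 3382 and 2494 CPM with little C1q RNA. All 6 measured MHC class II genes were called lower, with a median of -1.78 against -1.82 in the macrophage gate. Of 12 chemokine genes 6 were called lower, and Ccl12 was at 1785 and 345 CPM and Cxcl10 at 391 and 51 CPM, while Ccl6 at 1610 and 2798 CPM was 1 of 2 called higher. Of 23 glycolysis and hypoxia genes 8 were called higher and none lower, among them Vegfa at 12 and 108 CPM from 3 and 110 UMIs. Wfdc17 was at 976 and 3618 CPM (log2 1.89), and Ltc4s, leukotriene C4 synthase, at 35.9 and 261 CPM (log2 2.86).

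Neutrophils with little C1q RNA in UEIS KI were not uniform. Among the 54 barcodes thinned to 1000 UMIs, 29 held Retnlg RNA and 25 did not, a split made after the data had been seen and used here as a description of 1 library. S100a8 was at 49724 CPM in those with Retnlg and 17080 CPM in those without, and Lcn2 at 1862 and 80 CPM. Slpi was at 4207 and 1200 CPM, and all 16 Mmp8 and 23 Ngp UMIs lay in barcodes with Retnlg. The other barcodes had more RNA of some chemokines, with Ccl3 at 1103 CPM with Retnlg and 3320 CPM without, and Ccl4 at 517 and 2600 CPM. Cxcl3 was alike at 414 and 440 CPM. For Ccl4, 1 barcode without Retnlg held 38 UMIs before thinning, against 65 UMIs in all barcodes without Retnlg after it. Hilpda, a lipid droplet protein induced by hypoxia, was at 483 and 1240 CPM, and so was Apoe. Cxcl2 was also higher in barcodes without Retnlg, at 18931 CPM (17380 to 20583) with and 24040 CPM (22156 to 26041) without. Il1b at 12000 and 11400 CPM and Il1r2 at 1897 and 1760 CPM were alike in both. UEIS LSL had 4 and 5 such barcodes, too few to describe.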

How the data were processed

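Droplet 3' RNA of CD45+ cells was measured in 1 library per genotype. The authors deposited filtered gene-by-barcode UMI count matrices. Per the file headers these came from Cell Ranger 8.0.1, whereas the submitters' processing notes name Cell Ranger 2.1.1 and the build mm10. Counts of 92764697 (UEIS LSL) and 99404988 (UEIS KI) UMIs were used as deposited. Members and gene lists were chosen with earlier results of these data known. Barcodes were kept by the limits given above. The macrophage, monocyte, T cell and B cell gates were made in the same way from marker UMIs. Doublets were not removed, and leaving out the highest Scrublet scores (scanpy 1.11.5) was an alternative. The libraries shared 34 barcode sequences, none of a neutrophil.

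Summed counts per 1000000 UMIs (CPM) carry exact Poisson intervals, shares Clopper-Pearson intervals, and ratios conditional binomial intervals (scipy 1.17.1). The ratio intervals were run on simulated Poisson counts, the model that they assume. That run checks the calculation and cannot show how the intervals hold for counts that are uneven between barcodes. Where a library had 0 UMIs of a gene, the fold was taken against 3 counts. Named genes were the first 12 higher and 12 lower by the interval bound nearest 1, the 3 most abundant and the most different members of each list, all neutrophil markers and 20 genes above macrophages. Genes named for barcodes with much C1q RNA or for the Retnlg split were chosen after their values were seen. 52 alternatives were planned and 5 added later. The matrices have no column of another sample. Gene positions come from GENCODE (mm10).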

Additional observations from a re-analysis of the deposited data

Results flagged for a closer look

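Of the 686 genes measured in both kinds of neutrophil barcode, 13 were called in opposite directions between UEIS KI and UEIS LSL. Another 16 were called higher and 8 lower in both kinds. Over all measured genes 7.84% were called higher and 10.3% lower with little C1q RNA, and 6.26% and 5.0% with much. Whether 13 is more than such shares give was not tested. Each pair of values below is the log2 ratio with little and then with much C1q RNA. The difference between the kinds was not tested, since each kind has 1 library per genotype.

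Lower with little C1q RNA and higher with much were Ahnak at -1.13 and 0.92, Arg1 at -0.64 and 1.13, Cd63 at -0.89 and 0.75, Ctsd at -0.66 and 0.69 and Hmox1 at -2.93 and 1.76. The same pattern held for Lgals3 at -1.18 and 1.2, Mif at -0.99 and 0.60, Ninj1 at -1.50 and 0.80, Nr4a1 at -0.81 and 0.85 and Plin2 at -1.31 and 0.90. Hmox1 encodes haem oxygenase 1, Lgals3 galectin 3, Arg1 arginase 1 and Plin2 a lipid droplet coat protein. Of the UEIS LSL UMIs with little C1q RNA, 1 barcode gave 79.3% for Hmox1, 42.3% for Lgals3 and 67.6% for Arg1. Lgals3 was called lower also in barcodes under 3000 UMIs.

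Higher with little C1q RNA and lower with much were AW112010 at 2.0 and -1.52, Ctsc at 0.85 and -0.72 and Txnip at 1.18 and -0.60. AW112010 had 0 UMIs in UEIS LSL with little C1q RNA, so its first value is set against a floor of 3 counts, and 65.7% of its 67 UMIs in UEIS KI lay in 1 barcode.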

How the results depend on the processing

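No paired analysis was possible because each genotype has 1 library. The log2 ratio of the neutrophil share ranged over its alternatives from 1.92 to 2.45 for all neutrophils, 1.99 to 2.63 with little C1q RNA and 1.86 to 2.80 with much. With little C1q RNA, 38 of 102 named genes kept their direction in every alternative, Retnlg (1.58 to 2.84) and Hcar2 among them. Settings on depth and on the highest barcode were chosen after seeing the data. Counts of higher and lower genes (54 and 71) became 23 and 24 under 3000 UMIs and 21 and 18 after thinning, with 247 and 196 genes measured. They became 108 and 18 without each gene's highest barcode and 237 and 187 with no C1q limit, and 162 were lower with a limit of 1 UMI per gene, where 10377 genes were counted.

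The chemokine median of -0.77 was 0.61 with at least 2 receptor UMIs, 0.76 under 3000 UMIs, 0.000205 after thinning, -0.071 with every barcode counting alike and -1.35 without the deepest 5%. The tumour-associated median of -0.76 was 0.083 under 3000 UMIs, -0.036 with every barcode alike and 0.13 with no C1q limit, where glycolysis was 0.21 and cell cycle -0.27. With at least 2 receptor UMIs the log2 ratio was 0.13 for Lyz2, 0.15 for Apoe, 3.53 for Ccl7, -0.029 for Ifitm1, 0.60 for Ccl4, 0.81 for Arg1, 0.0020 for Ifitm3, -0.17 for Nfkbiz and 0.026 for Cxcl3. Under 3000 UMIs it was 0.53 for Psap, 0.014 for Ccl3, 0.89 for Ccl4 and 1.52 for Cxcl3. It was 0.82 for H2-D1 and 0.31 for Btg1 after thinning, 0.18 for Ccl4 with every barcode alike, and 0.35 for Cxcl3 and 0.43 for Arg1 without the highest barcode. With no C1q limit it was -0.51 for AW112010, -0.077 for Ifi30, -0.015 for Manf, 0.26 for Hmox1, 0.12 for Pgk1, 0.72 for Lgals3, 0.33 for Ninj1, 0.20 for Ftl1, 0.76 for Arg1, 0.014 for Ifitm3, 0.18 for Mcl1, -0.28 for Tubb5 and -0.38 for Tuba1b. That setting adds the 89 barcodes with much C1q RNA by construction, and otherwise the cause was not tested.

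The depth of 34591 UMIs in UEIS LSL with little C1q RNA limits all ratios there, and 4 barcodes held 67.0% of it. Intervals cover counting error, not the spread between mice. No share with much C1q RNA was obtained under 3000 UMIs, where UEIS LSL had no such barcode, and every barcode counting alike gives no counts of calls.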
